A study of Mus musculus with 10 samples.

Results

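The genes described here are 10 genes of the unfolded protein response and the integrated stress response, measured by bulk RNA-seq in mouse liver. They were taken by symbol from the gene table, are 10 of its 55291 genes, and are Atf4, Ddit3, Xbp1, Hspa5, Dnajb9, Herpud1, Asns, Chac1, Trib3 and Sesn2. All 10 were among the 17015 genes expressed highly enough to be tested, and each passed the expression filter in every liver of every group.

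The study asked how loss of Bap1, a nuclear deubiquitinase and tumour suppressor, in hepatocytes alters the response of the liver to damage. All 10 mice were 16 to 20 week old females that carry a Cas9 gene behind a loxP-flanked stop cassette, and all received the virus AAV8-U6-sgRNA-TBG-Cre by tail vein. In the NTC groups the virus carried a non-targeting guide and in the sgBap1 groups a guide against Bap1. After 10 days the mice were injected intraperitoneally, at 10 µL per g, with carbon tetrachloride (CCl4, 1 part to 9 parts of olive oil) or with olive oil as vehicle (Veh), and 48 h later RNA was taken from the right liver lobe. Each vehicle group (NTC-Veh and sgBap1-Veh) had 2 livers and each CCl4 group (NTC-CCl4 and sgBap1-CCl4) had 3. The TBG promoter is a hepatocyte promoter and AAV8 favours hepatocytes, so a whole-lobe sample also holds RNA of cell types the virus was not aimed at and of hepatocytes it may not have edited, whose shares were not measured here. Sequencing in the study found only part of the Bap1 target sites edited in the liver tissue used for RNA-seq. No group was left without virus or Cas9.

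When unfolded proteins build up in the endoplasmic reticulum (ER), the sensors IRE1, ATF6 and PERK are released from the chaperone BiP. IRE1 splices the Xbp1 mRNA, ATF6 is cut to release a transcription factor, and PERK phosphorylates the translation factor eIF2, which slows general translation and favours translation of Atf4. The kinases that sense amino acid shortage, double-stranded RNA and haem deficiency also act on eIF2, so that ATF4 and its targets report more than ER stress. The hepatocyte, which secretes most plasma proteins, depends heavily on this system.

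The regulatory sequence is shown for the 4 genes whose region upstream of the RefSeq start held a match to a binding motif of this pathway. The motifs searched on both strands were the ER stress response element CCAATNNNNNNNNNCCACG and its shorter form ATTGGNCCACG, which ATF6 recognises together with NF-Y, the ATF6 and XBP1 core TGACGTG, and the C/EBP-ATF composite site TGATGNAA, which ATF4 recognises. The windows are the RefSeq promoters of GRCm38.p6, from 250 bases before to 50 bases after the annotated start, and all 10 genes were matched by symbol. In Hspa5 TGACGTG began at position -157 and the long element at position -65, in Herpud1 the short element began at -52, and TGATGNAA or its reverse complement began at -112 in Herpud1, -193 in Chac1 and -23 in Asns. Matches did not overlap one another. The stretches printed are chr2:34771840-34771969 and chr2:34772020-34772049 for Hspa5, chr8:94386179-94386428 for Herpud1, chr2:119350992-119351228 for Chac1 (all + strand) and chr6:7693214-7693243 (- strand) for Asns, with the matches in capitals.

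Hspa5, -250 to -121: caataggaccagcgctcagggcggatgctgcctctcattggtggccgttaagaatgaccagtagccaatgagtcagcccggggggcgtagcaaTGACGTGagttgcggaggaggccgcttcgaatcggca
Hspa5, -70 to -41: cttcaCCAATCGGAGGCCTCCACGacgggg
Herpud1, -250 to -1: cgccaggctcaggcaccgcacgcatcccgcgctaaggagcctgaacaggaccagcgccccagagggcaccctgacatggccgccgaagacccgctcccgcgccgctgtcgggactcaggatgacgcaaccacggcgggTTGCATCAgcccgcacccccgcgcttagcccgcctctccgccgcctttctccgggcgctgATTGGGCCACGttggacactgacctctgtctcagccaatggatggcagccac
Chac1, -250 to -14: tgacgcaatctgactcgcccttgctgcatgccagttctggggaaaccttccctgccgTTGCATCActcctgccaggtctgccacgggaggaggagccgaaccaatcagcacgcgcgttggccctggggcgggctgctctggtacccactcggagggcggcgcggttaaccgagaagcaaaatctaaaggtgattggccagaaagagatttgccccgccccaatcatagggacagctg
Asns, -34 to -5: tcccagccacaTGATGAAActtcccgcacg

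Bases that GENCODE vM21 places in exons of the gene were left out, apart from windows of 30 bases around a match. In Trib3 a reverse-strand TGATGNAA (152344039 to 152344046, gene on the - strand) began 15 bases into the transcript by the RefSeq start. By GENCODE vM21, which starts Trib3 at 152344032, this match lies before the gene. Atf4, Ddit3, Xbp1, Dnajb9 and Sesn2 held none of these letters in the window. For Dnajb9 the whole window (44210019 to 44210318, - strand) lies inside the gene as GENCODE vM21 places it, which ends at 44210326. The sequence before that GENCODE start was not searched, so Dnajb9 cannot be said to lack these motifs. Among all 32851 promoters of this length, 0.119% held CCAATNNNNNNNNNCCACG, 0.0365% held ATTGGNCCACG, 2.01% held TGACGTG and 3.97% held TGATGNAA. These are matches of letters, and binding was not measured.

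The libraries held 33047904 to 52199904 estimated counts, and expression is given as CPM, counts scaled to 1e+06 per TMM-normalised library. Bap1 measured 34.8 CPM in both NTC-Veh livers and 17.5 and 19.5 CPM in the sgBap1-Veh livers, and 29.5 to 31.5 CPM with CCl4 in NTC against 17.0 to 21.8 CPM in sgBap1 livers, so the labels held in every liver. The sgBap1-CCl4 liver of replicate 2 stood apart in all 4 fat cell markers, with Adipoq at 36.4 CPM, Plin1 at 34.5 CPM and Cfd at 144 CPM, where the other 9 livers had at most 2 counts of any of the 4. It also had the highest Col1a1 (402 CPM, against at most 143 CPM in the other 5 CCl4 livers), Acta2 (95.5 against 44.4 CPM), Dcn, Msln and Wt1 of all 10 livers, and its 5 stellate cell and fibroblast markers summed to 853 CPM against 378 to 481 CPM in the other CCl4 livers. Of the CCl4 livers it had the lowest sum of hepatocyte markers and the highest sum of macrophage markers. Summed hepatocyte markers (5 of 6 genes were in the table) were 122240 to 151700 CPM in NTC-Veh and 106310 to 115560 CPM in sgBap1-Veh, against 76265 to 86609 CPM in NTC-CCl4 and 68684 to 88715 CPM in sgBap1-CCl4 livers. The 5 macrophage markers summed to 150.5 to 205 CPM, 295 to 406 CPM, 601 to 776 CPM and 608 to 806 CPM in the same order. The 4 dividing cell markers summed to 5.36 to 5.51 CPM, 8.16 to 11.4 CPM, 154 to 294 CPM and 189.5 to 274 CPM. In bulk RNA, fewer cells of a type and less RNA per cell cannot be told apart.

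**Figure D1:**
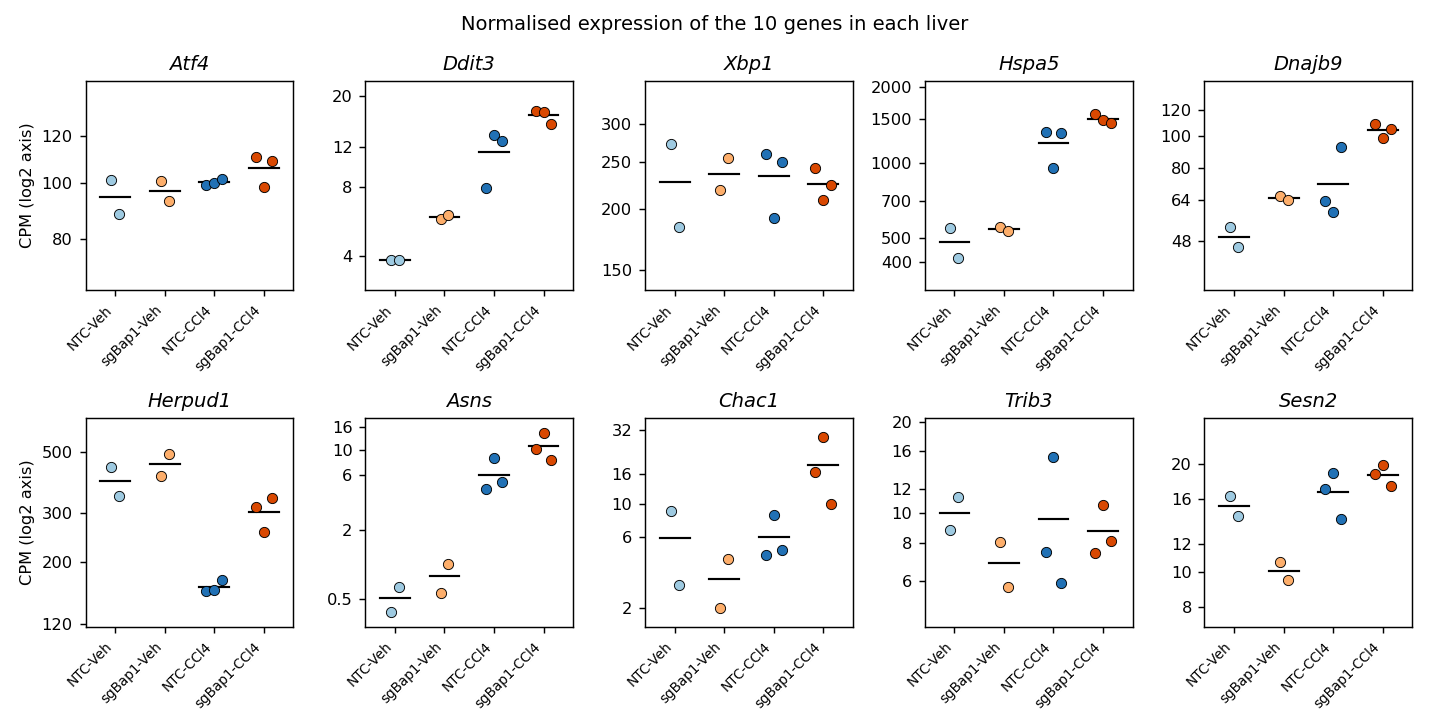
Normalised expression (CPM, log2 axis with its own range in each panel) of the 10 genes in each of the 10 livers, with a point per liver and a bar at the group mean. Atf4 and Xbp1 stayed within 88.4 to 110.5 CPM and 184 to 272 CPM, whereas Asns ran from 0.381 to 14.2 CPM.

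Per kilobase of exon, which allows levels to be compared between genes, Herpud1 was the most abundant of the 10 in NTC-Veh livers with a mean level of 168.6 CPM per kb, ahead of Hspa5 with 114 and Xbp1 with 70.2. In NTC-CCl4 livers Hspa5 led with a mean level of 283 CPM per kb, and Herpud1 stood at 69.6, next to Xbp1 with 72.1. Asns had the lowest mean level in every group, from 0.186 CPM per kb in NTC-Veh to 3.95 in sgBap1-CCl4 livers.

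CCl4 was compared with vehicle within each genotype to see which of these genes respond to damage. In NTC livers Hspa5, Ddit3, Asns and Dnajb9 rose and Herpud1 fell, and in sgBap1 livers Chac1 and Sesn2 rose as well. Atf4, Xbp1 and Trib3 did not pass the test in either genotype with TMM scaling. Of the 10 genes 5 were thus called in NTC and 7 in sgBap1 livers (adjusted p under 0.05, edgeR quasi-likelihood test with Benjamini-Hochberg adjustment over all 17015 genes). CCl4 moved most of the transcriptome, and 53.9% of all genes were called in NTC (27.4% higher and 26.6% lower) and 57.0% in sgBap1 livers (29.0% and 28.0%), so these shares lie near the background. The median log2 fold change of the 10 genes was 0.10 in NTC and 0.78 in sgBap1 livers, against 0.03 and 0.04 over all genes. Scaled by library size alone, the median of all genes moved to 0.50 and 0.52, 8500 of 10561 called genes were higher in NTC (4659 of 9178 with TMM), and 8 of the 10 genes were called in each genotype. Atf4 was then called at 0.56 and 0.60 (edgeR adjusted p of 0.000268 and 0.000146), Xbp1 at 0.52 and 0.41 (0.0164 and 0.0462) and Sesn2 in NTC at 0.60 (0.00524), which lie near those all-gene medians. The summed dividing cell and macrophage markers were higher with CCl4 in both genotypes, and the summed hepatocyte markers were lower. Of the 5 macrophage markers edgeR called 4 higher and 0 lower with CCl4 in NTC, and 3 higher and 1 lower in sgBap1 livers. Clec4f went against the sum in sgBap1 livers, at 116 to 170 CPM with vehicle and 47.1 to 65.4 CPM with CCl4. In NTC livers Clec4f overlapped, at 61.5 to 88.8 CPM and 51.0 to 78.7 CPM. The part of these cell types in the values above was not tested.

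**Figure D2:**
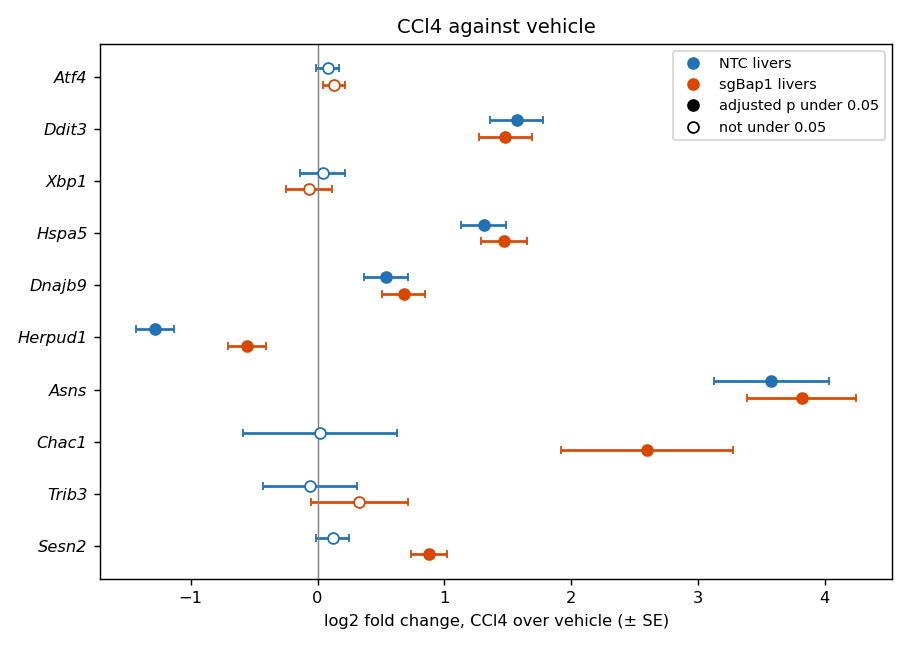
Log2 fold change of CCl4 over vehicle (x axis, ± SE) for each of the 10 genes in NTC (blue) and sgBap1 (orange) livers, with filled points for an adjusted p under 0.05. Asns lies farthest right in both, Herpud1 lies left of 0 in both, and the points of Chac1 and Sesn2 are filled in sgBap1 and open in NTC livers.

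Among the transcription factors, Atf4, the factor whose translation is favoured when eIF2 is phosphorylated (chromosome 15, 80255184 to 80257541 in GRCm38), hardly varied. It measured 101 and 88.4 CPM in NTC-Veh, 101 and 93.1 CPM in sgBap1-Veh, 99.3, 99.8 and 102 CPM in NTC-CCl4 and 110.5, 98.1 and 109 CPM in sgBap1-CCl4 livers. All neighbouring groups overlapped, and its log2 fold change with CCl4 was 0.08 ± 0.09 (SE) in NTC and 0.13 ± 0.09 in sgBap1 livers, with adjusted p of 0.479 and 0.26. Counts of mRNA do not show how much ATF4 protein was made.

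Ddit3, which encodes CHOP, a transcription factor induced by ATF4 and tied to cell death under lasting ER stress (chromosome 10, 127290774 to 127296288), separated all 4 groups. It measured 3.84 and 3.85 CPM in NTC-Veh, 5.81 and 6.03 CPM in sgBap1-Veh, 7.93, 13.5 and 12.8 CPM in NTC-CCl4 and 17.2, 17.1 and 15.1 CPM in sgBap1-CCl4 livers. Every liver of a group lay above every liver of the group before it in this order. How many of all genes separate in this way was not counted. Neither difference between genotypes was called for Ddit3 (edgeR adjusted p of 0.303 with vehicle and 0.206 with CCl4). CCl4 raised Ddit3 by 2.96-fold in NTC livers (log2 1.57 ± 0.21, edgeR adjusted p = 0.000149) and by 2.78-fold in sgBap1 livers (log2 1.48 ± 0.21, adjusted p = 0.000175). Of its exon bases 3.97% overlap the gene Mars on the opposite strand.

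Xbp1, whose mRNA is spliced by IRE1 into the form that encodes an active factor (chromosome 11, 5520659 to 5525893), overlapped in all groups. It ranged from 184 to 272 CPM in NTC-Veh, 219 to 255 CPM in sgBap1-Veh, 192 to 260.1 CPM in NTC-CCl4 and 209 to 243 CPM in sgBap1-CCl4 livers. The gene counts pool the spliced and unspliced forms. Its log2 fold change with CCl4 was 0.04 ± 0.18 in NTC and -0.07 ± 0.18 in sgBap1 livers, with edgeR adjusted p of 0.875 and 0.752.

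Among the proteins that work in the ER, Hspa5, which encodes the chaperone BiP (chromosome 2, 34771970 to 34777547), was among those that rose. It measured 549 and 416 CPM in NTC-Veh, 552 and 531 CPM in sgBap1-Veh, 1321, 955 and 1313 CPM in NTC-CCl4 and 1571, 1487 and 1437 CPM in sgBap1-CCl4 livers. Vehicle livers of the 2 genotypes overlapped, and every CCl4 liver lay above every vehicle liver. The rise was 2.48-fold in NTC (log2 1.31 ± 0.18, edgeR adjusted p = 0.000156) and 2.77-fold in sgBap1 livers (log2 1.47 ± 0.18, adjusted p = 7.22e-05). Its promoter is the one that held the long ER stress response element.

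Dnajb9, a J-domain cochaperone of BiP known as ERdj4 and a target of XBP1 (chromosome 12, 44205559 to 44210326), changed less. It measured 53.0 and 46.0 CPM in NTC-Veh, 65.9 and 64.2 CPM in sgBap1-Veh, 63.5, 58.8 and 93.0 CPM in NTC-CCl4 and 109, 98.8 and 105 CPM in sgBap1-CCl4 livers. The sgBap1-Veh livers fell within the range of the NTC-CCl4 livers, and the sgBap1-CCl4 livers lay above all others. CCl4 raised it by 1.45-fold in NTC (log2 0.54 ± 0.17, edgeR adjusted p = 0.0234) and by 1.61-fold in sgBap1 livers (log2 0.68 ± 0.17, adjusted p = 0.00685). In NTC livers the call was lost without the NTC-Veh liver of replicate 1 (adjusted p = 0.0514) or of replicate 2 (0.156), and when only the livers of the 2 groups were fitted (0.0689). Of its 50-base stretches 5.5% also occur in Gm6568.

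Herpud1, a membrane protein of the machinery that degrades misfolded ER proteins (chromosome 8, 94386438 to 94395377), moved the other way. It measured 442 and 345 CPM in NTC-Veh, 408 and 492 CPM in sgBap1-Veh, 157, 158 and 172 CPM in NTC-CCl4 and 315, 257 and 341 CPM in sgBap1-CCl4 livers. The NTC-CCl4 livers were the lowest, the sgBap1-CCl4 livers lay between them and the vehicle livers with no overlap on either side, and the vehicle livers of the 2 genotypes overlapped. CCl4 lowered Herpud1 by 2.42-fold in NTC (log2 -1.28 ± 0.15, edgeR adjusted p = 5.81e-05) and by 1.48-fold in sgBap1 livers (log2 -0.56 ± 0.15, adjusted p = 0.0088). The call in sgBap1 livers was lost without the sgBap1-Veh liver of replicate 2 (log2 -0.42, adjusted p = 0.0931) and with scaling by library size alone (log2 -0.09, adjusted p = 0.521, beside the all-gene median of 0.52). Herpud1 fell where Hspa5 rose in both genotypes, and the promoters of both held an ER stress response element.

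Among the targets of ATF4, Asns, which encodes asparagine synthetase (chromosome 6, 7675169 to 7693254), had the largest fold change of the 10 genes. It measured 0.381 and 0.637 CPM in NTC-Veh, 0.565 and 1.01 CPM in sgBap1-Veh, 4.54, 8.45 and 5.23 CPM in NTC-CCl4 and 10.1, 14.2 and 8.10 CPM in sgBap1-CCl4 livers. All CCl4 livers lay above all vehicle livers, and within each treatment the genotypes overlapped. The rise was 11.9-fold in NTC (log2 3.58 ± 0.45, edgeR adjusted p = 0.000108) and 14.1-fold in sgBap1 livers (log2 3.82 ± 0.43, adjusted p = 4.97e-05). The vehicle values rest on 14 to 27 counts per liver.

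Chac1, an enzyme that breaks down glutathione and is induced by ATF4 (chromosome 2, 119351229 to 119354381), was among the most variable. It measured 9.01 and 2.83 CPM in NTC-Veh, 1.99 and 4.23 CPM in sgBap1-Veh, 4.50, 8.49 and 4.92 CPM in NTC-CCl4 and 16.6, 28.5 and 10.1 CPM in sgBap1-CCl4 livers. The NTC-Veh livers overlapped with the sgBap1-Veh and with the NTC-CCl4 livers. These last did not overlap each other (at most 4.23 CPM in sgBap1-Veh, at least 4.50 CPM in NTC-CCl4). The 3 sgBap1-CCl4 livers lay above all others. Its log2 fold change with CCl4 was 0.02 ± 0.61 in NTC (adjusted p = 0.984, edgeR) and 2.60 ± 0.68 in sgBap1 livers (6.05-fold, adjusted p = 0.0117). The highest value came from the liver with fat cell markers, without which the log2 fold change in sgBap1 livers was 2.14 (adjusted p = 0.03), and the call was lost without the sgBap1-Veh liver of replicate 1 (log2 2.13, adjusted p = 0.0921).

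Trib3, a pseudokinase induced by ATF4 and CHOP (chromosome 2, 152337422 to 152344032), overlapped between vehicle and CCl4 livers. It measured 8.79 and 11.3 CPM in NTC-Veh, 8.07 and 5.73 CPM in sgBap1-Veh, 7.48, 15.3 and 5.93 CPM in NTC-CCl4 and 7.44, 10.6 and 8.14 CPM in sgBap1-CCl4 livers. The NTC-CCl4 livers alone spanned a 2.57-fold range that took in nearly all other livers. Its log2 fold change with CCl4 was -0.06 ± 0.37 in NTC and 0.33 ± 0.38 in sgBap1 livers, with edgeR adjusted p of 0.897 and 0.482.

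Sesn2, a sestrin that senses leucine, restrains mTORC1 and is induced by ATF4 and p53 (chromosome 4, 132492032 to 132510501), was lowest in sgBap1-Veh livers. It measured 16.3 and 14.4 CPM in NTC-Veh, 10.7 and 9.51 CPM in sgBap1-Veh, 17.0, 18.9 and 14.1 CPM in NTC-CCl4 and 18.7, 19.9 and 17.3 CPM in sgBap1-CCl4 livers. The 2 sgBap1-Veh livers lay below the other 8, which overlapped from group to group. Its log2 fold change with CCl4 was 0.12 ± 0.13 in NTC (edgeR adjusted p = 0.46) and 0.88 ± 0.14 in sgBap1 livers (1.85-fold, adjusted p = 0.000352).

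The genotypes were then compared within each treatment, to see what Bap1 loss did without and with damage. These comparisons share their livers with those of CCl4, so they are not independent of them. With vehicle, 0 of the 10 genes were called by edgeR's quasi-likelihood test, against 0.406% of all genes, and 2, Ddit3 and Sesn2, had an unadjusted p under 0.05, against 12.3% of all genes. DESeq2 called 1 of the 10 (562 of all genes) and limma-voom 0. Ddit3 and Dnajb9 were higher in both sgBap1-Veh livers than in both NTC-Veh livers, and Trib3 and Sesn2 lower. Such a separation was found for 21.7% of all genes upward and 19.2% downward. The log2 fold change of Sesn2 was -0.60 ± 0.15 (1.52-fold lower, edgeR adjusted p = 0.121) and DESeq2 gave an adjusted p of 0.0272, and that of Ddit3 was 0.62 ± 0.23 (edgeR adjusted p = 0.303). All 5 macrophage, all 5 T and NK cell and all 4 dividing cell markers were also higher in both sgBap1-Veh livers. Of the hepatocyte markers 3 of 5 were lower in both. EdgeR called 1 of the macrophage markers, higher, and 0 of the T and NK cell, dividing cell and hepatocyte markers. The part of these cell types in the values above was not tested.

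**Figure D3:**
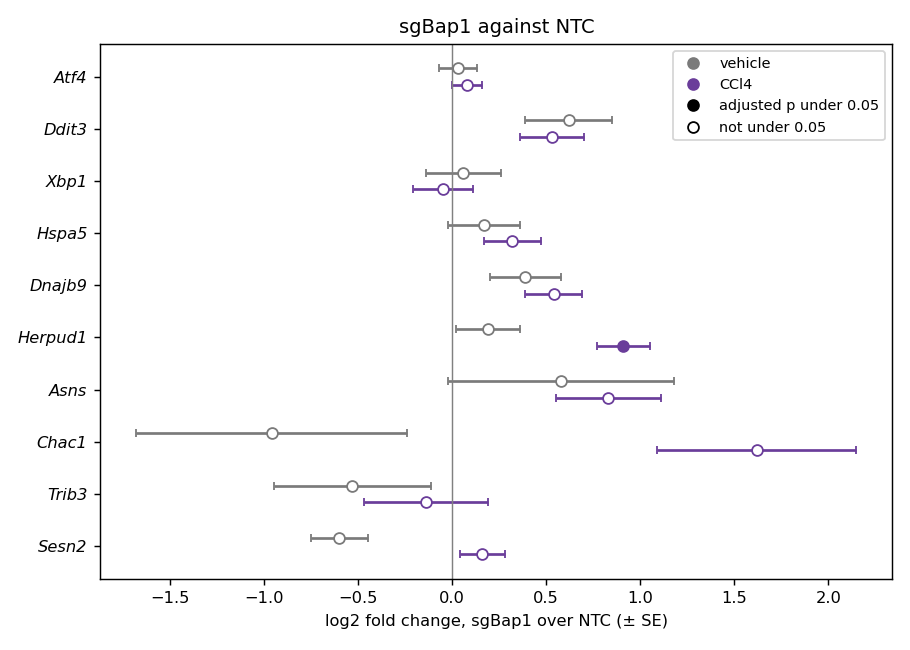
Log2 fold change of sgBap1 over NTC (x axis, ± SE) for each of the 10 genes with vehicle (grey) and with CCl4 (purple), with filled points for an adjusted p under 0.05. The only filled point is Herpud1 with CCl4, at 0.91, and with vehicle the values run from -0.96 for Chac1 to 0.62 for Ddit3.

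With CCl4, Herpud1 was the gene of the 10 that was called, against 0.329% of all genes (0.200% in the upward direction). It was 1.87-fold higher in sgBap1-CCl4 than in NTC-CCl4 livers, with means of 304 ± 42.8 CPM and 162 ± 8.28 CPM (SD, n = 3 each), a log2 fold change of 0.91 ± 0.14 and an adjusted p of 0.0322 (edgeR). This call rested on few livers. It was lost without any 1 of the NTC-CCl4 livers (adjusted p of 0.193, 0.0839 and 0.0829 for replicates 1, 2 and 3) and without the sgBap1-CCl4 liver of replicate 1 (0.112) or 3 (0.0563). Without the liver with fat cell markers it stood at 1.01 with an adjusted p of 0.0287, and the log2 fold change stayed between 0.81 and 1.01 over all livers left out in turn.

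Hspa5, Ddit3, Chac1, Herpud1 and Dnajb9 were each higher in all 3 sgBap1-CCl4 than in all 3 NTC-CCl4 livers, and none of the 10 was lower in this way, where 10.1% of all genes separated upward and 10.2% downward. The median log2 fold change of the 10 genes was 0.43, against 0 over all genes, and 5 had an unadjusted p under 0.05, against 14.0% of all genes. After adjustment over all genes Chac1 stood at 1.62 ± 0.53 (adjusted p = 0.243), Asns at 0.83 ± 0.28 (0.232), Dnajb9 at 0.54 ± 0.15 (0.154), Ddit3 at 0.53 ± 0.17 (0.206) and Hspa5 at 0.32 ± 0.15 (0.376), all on the log2 scale by edgeR. DESeq2 called Dnajb9 too (adjusted p = 0.0365). Without the liver with fat cell markers, Chac1 fell to 1.15 and Asns to 0.58 on the log2 scale, with adjusted p of 0.522 and 0.499. Without the NTC-CCl4 liver of replicate 1 Ddit3 fell to 0.32, and without that of replicate 2 Hspa5 fell to 0.19. Summed macrophage markers spanned nearly the same range in both CCl4 groups, and the stellate cell and fibroblast sum overlapped but reached 853 CPM in the sgBap1-CCl4 liver of replicate 2, against at most 481 CPM in NTC-CCl4. Their part in these values was not tested.

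Whether the response to CCl4 differed between the genotypes was tested by the interaction, the log2 fold change with CCl4 in sgBap1 livers minus that in NTC livers. EdgeR called 0 of the 10 genes and 0 of all 17015, and the smallest adjusted p of any gene was 0.0694. Among the 10 genes 3 had an unadjusted p under 0.05, against 10.4% of all genes, while DESeq2 called 1 of the 10 (424 of all genes) and limma-voom 0. Sesn2 had a difference of 0.76 ± 0.19 (edgeR adjusted p = 0.16), and DESeq2 gave an adjusted p of 0.0324. The difference was 0.71 ± 0.22 for Herpud1 (adjusted p = 0.246) and 2.58 ± 0.90 for Chac1 (adjusted p = 0.365) by edgeR. For Chac1 and Sesn2, called with CCl4 in sgBap1 and not in NTC livers, a difference between the genotypes was therefore not established by edgeR.

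The other genes of the same pathways were read from 6 lists with 86 genes, all of them tested. With CCl4 in NTC livers 50 were higher, 11 lower and 25 not called, so that 70.9% were called, against 53.9% of all genes (27.4% higher and 26.6% lower), with a median log2 fold change of 0.54 against 0.03 over all genes. These background shares also apply to the counts of each list, of which 81.2% of the ER folding factors, 75% of ER degradation and translocation, 69.2% of the stress sensors and eIF2 regulators, 42.9% of the ATF4 and CHOP list, 86.7% of amino acid supply and 66.7% of the tRNA synthetases were called. The ER folding factors moved most uniformly, with 13 of 16 higher, 0 lower and a median of 0.76. Creld2, an ER-resident factor induced by ER stress, rose 3.58-fold (log2 1.84 ± 0.25, edgeR adjusted p = 0.000268) from 15.4 to 55.2 CPM. Dnajc10, a disulfide reductase of the ER, rose 3.31-fold (log2 1.73 ± 0.14, adjusted p = 6.6e-06).

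**Figure D4:**
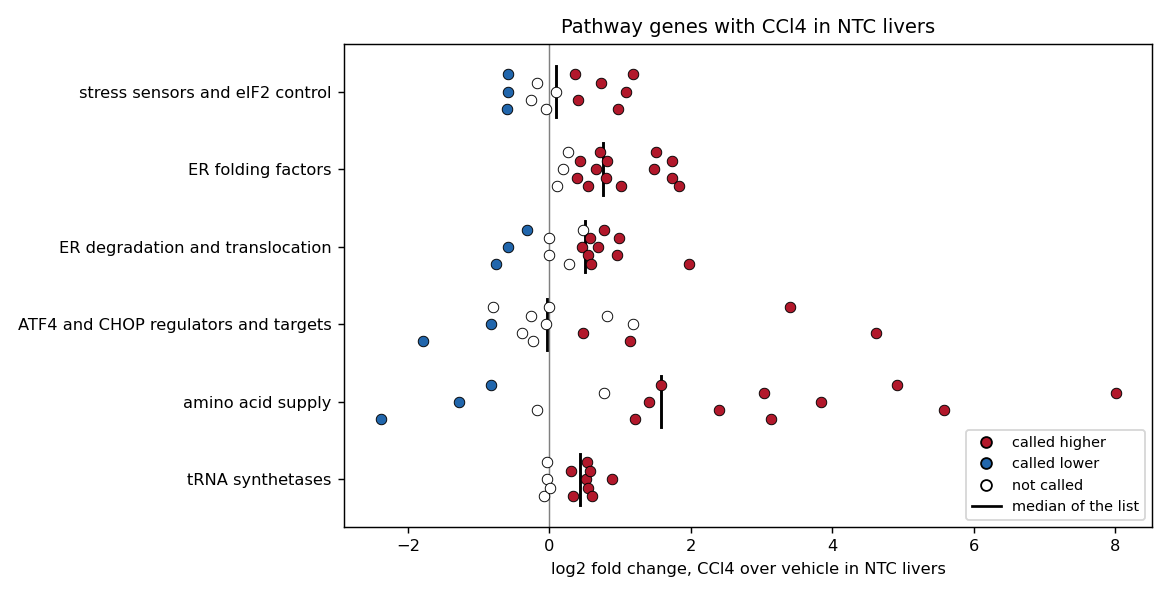
Log2 fold change of CCl4 over vehicle in NTC livers (x axis) for the 86 genes of 6 pathway lists, a point per gene, red where called higher, blue where called lower and white where not called, with a bar at the list's median. The ER folding factors have no blue point, and the amino acid supply list runs from -2.38 for Cth to 8.01 for Slc7a11, a fitted value that rests on 1 and 2 counts in the NTC-Veh livers.

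In ER degradation and translocation 9 of 16 genes were higher and 3 lower in NTC-CCl4 livers. Derl3 rose from 0.794 to 3.14 CPM (log2 1.97 ± 0.29, edgeR adjusted p = 0.000246) and Ssr1, a subunit of the translocon-associated complex, from 113 to 223 CPM (log2 0.98 ± 0.12, adjusted p = 8.96e-05). Derl2, a channel component of ER-associated degradation like Derl3, fell from 127 to 75.4 CPM (log2 -0.75 ± 0.18, adjusted p = 0.0056) and the lectin Os9 from 264 to 175 CPM (log2 -0.59 ± 0.10, adjusted p = 0.000608). Both, like Herpud1, act in degradation, and neither fall was called when scaled by library size alone (adjusted p of 0.126 and 0.264). Without the NTC-Veh liver of replicate 1, which left a lone liver in that group, the call of Derl2 was lost. Its log2 fold change was then -0.48.

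Of the stress sensors and eIF2 regulators 6 of 13 were higher and 3 lower. Ppp1r15a, the stress-induced subunit GADD34 that directs eIF2 dephosphorylation, rose from 10.9 to 24.8 CPM (log2 1.18 ± 0.19, edgeR adjusted p = 0.000515), and Ppp1r15b, its constitutive counterpart, fell from 121 to 80.3 CPM (log2 -0.59 ± 0.10, adjusted p = 0.00048). Eif2ak2, the kinase PKR, rose (log2 1.08 ± 0.16) and Creb3l3, a liver transcription factor held in the ER membrane, fell (log2 -0.60 ± 0.15), with adjusted p of 0.000283 and 0.00739. Scaled by library size alone, Ppp1r15b and Creb3l3 were not called (0.398 and 0.391). Without the NTC-Veh liver of replicate 1, which left a lone liver in that group, the call of Creb3l3 was lost. Its log2 fold change was then -0.49.

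Among the regulators and targets of ATF4 and CHOP 4 of 14 were higher and 2 lower, with a median of -0.03. This is 42.9% called, beside 53.9% of all genes (27.4% higher and 26.6% lower), and the gap was not tested. Atf3, a stress-induced transcription factor, rose from 1.57 to 38.7 CPM (24.7-fold, log2 4.62 ± 0.38, edgeR adjusted p = 1.63e-05), and Nupr1 from 1.09 to 11.5 CPM (10.6-fold, log2 3.40 ± 0.29, adjusted p = 7.68e-06). Vldlr, a lipoprotein receptor, fell 3.44-fold (log2 -1.78 ± 0.44, adjusted p = 0.00832), and Cebpb, a partner of ATF4, fell 1.77-fold (log2 -0.83 ± 0.20, adjusted p = 0.00679). The fall of Cebpb was not called with scaling by library size alone (adjusted p = 0.149) or without the NTC-Veh liver of replicate 1 (0.0925), and that of Vldlr without replicate 2 (0.0611).

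The amino acid supply list had the highest median of the 6 lists, 1.58, with 10 of 15 genes higher and 3 lower. The part of ATF4 in these values was not tested. Phgdh, the first enzyme of serine synthesis, rose from 0.165 to 7.99 CPM (47.8-fold, log2 5.58 ± 0.30, edgeR adjusted p = 1.01e-06). Slc7a11, the cystine transporter, was at 0.0413 CPM in NTC-Veh livers (1 and 2 counts) and at 11.3 CPM in NTC-CCl4 livers. Cth, which makes cysteine from cystathionine, fell 5.21-fold (log2 -2.38 ± 0.19, adjusted p = 6.96e-06) and Shmt2 2.42-fold (log2 -1.28 ± 0.13, adjusted p = 2.21e-05). The tRNA synthetases had 8 of 12 genes higher and 0 lower, led by Wars (log2 0.88 ± 0.09) and Lars (log2 0.61 ± 0.10), with adjusted p of 3.18e-05 and 0.000629.

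In sgBap1 livers CCl4 gave 52 higher, 10 lower and 24 not called of the 86, so that 72.1% were called against 57.0% of all genes (29.0% higher and 28.0% lower), with a median of 0.64 against 0.04. Between genotypes 0 of the 86 were called by edgeR with vehicle, with 6 at an unadjusted p under 0.05 (12.3% over all genes). DESeq2 called 2 (562 of all genes) and limma-voom 0. With CCl4 14 of the 86 had an unadjusted p under 0.05 by edgeR, against 14.0% of all genes. DESeq2 called 7, all higher, and 509 of all genes, of which 212 were higher. EdgeR called 1, Phgdh, against 0.329% of all genes (0.200% in the upward direction). Phgdh stood at 7.99 ± 1.05 CPM in NTC-CCl4 and 15.8 ± 2.60 CPM in sgBap1-CCl4 livers (SD, n = 3 each). It was 1.98-fold higher (log2 0.98 ± 0.15, edgeR adjusted p = 0.0347). That call was lost without either NTC-Veh liver, any of the 3 NTC-CCl4 livers or the sgBap1-CCl4 liver of replicate 1 or 2, at adjusted p of up to 0.196, while its log2 fold change stayed between 0.84 and 1.10 over all livers left out in turn. The interaction called 0 of the 86 by edgeR, with 11 at an unadjusted p under 0.05 (10.4% over all genes). DESeq2 called 2 (424 of all genes) and limma-voom 0.

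The genes whose profile over the 10 livers was most like that of a member were taken by the smallest root mean square difference of centred log2 CPM. They were Cemip2 and Srprb for Hspa5 (0.111 and 0.119), Rcan1 and Fam129a for Ddit3 (0.185 and 0.197), Alg2 and Amigo3 for Dnajb9 (0.142 and 0.145) and Pfkfb1 and Il6ra for Herpud1 (0.190 and 0.224). For Asns they were Slc35e4 and S100a6 (0.271 and 0.284), for Sesn2 Kdm8 and Gm37795 (0.125 and 0.128), for Trib3 Rnf113a1 and Bmyc (0.187 and 0.192) and for Chac1 Tro and H2bc9 (0.507 and 0.512). Atf4 was nearest to Polr3c and Foxj3 (0.0459 and 0.0474) and Xbp1 to Fancl and Slc33a1 (0.0912 and 0.1), but these 2 genes varied little, so that many flat genes lay close. For Hspa5 the nearest of the other 9 genes was Ddit3, at 0.34. For Herpud1 the nearest was Xbp1, at 0.591, where a flat profile would lie at 0.589.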

How the data were processed

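The authors made stranded mRNA libraries (TruSeq), sequenced read pairs of 50 bases, aligned them to GRCm38 with STAR 2.7.6a and quantified genes of GENCODE vM25 with Salmon 1.4.0. The deposited values are the authors' estimated counts (expected counts) per gene symbol, without normalisation, and the Salmon library type is not given in the sources used here. The 10 columns were matched to samples by the library name in the labels. Of the values 9.22% were not exactly whole (6.55% were over 0.01 from a whole number), and all were rounded.

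Testing used edgeR 4.0.16 (R 4.3.3). The function filterByExpr kept 17015 genes, which were normalised by TMM and fitted in one model of the 4 groups with glmQLFit (robust, edgeR 4 method). Tests were two-sided quasi-likelihood tests with Benjamini-Hochberg adjustment over all tested genes and a threshold of 0.05. SEs were taken as the absolute log2 fold change over the root of F. The study's methods name DESeq2, used here as an alternative (1.42.0) beside limma-voom (limma 3.58.1). CPM use the TMM-scaled library, and 3 counts, the least told from 0, equal 0.0511 to 0.112 CPM, which covers counting error only. Libraries of one group differed by far more than counting error (mean chi-square of 14.5 to 85.9 per gene, where counting error alone gives about 1). With 2 livers against 2 an exact permutation test cannot go below 0.333, and with 3 against 3 not below 0.1.

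The labels do not say more of the replicates than their number, so p-values measure the spread between these livers. No batch is named. Positions, exon lengths and overlaps come from GENCODE vM21 on GRCm38, since vM25 was not used here, and Ddit3 has 2 gene entries under its symbol there, of which the longer is given. Promoters come from RefSeq (GRCm38.p6). The members, the 6 pathway lists and the marker lists were chosen with earlier results of these data known. Of each list, the text names for each genotype comparison and the interaction the 2 genes of largest absolute change past the threshold, and for CCl4 in NTC the 2 highest and 2 lowest past it. For each member it names the 2 most similar genes. The tests were tried on simulated counts first. Alternatives were other scalings (DESeq2 size factors, library size alone), other filters (1 count in total, a mean of 10 counts), a replicate block, other tools, a fit of the 2 groups alone and each liver left out in turn. The method of edgeR 3 was added after seeing the data.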

Additional observations from a re-analysis of the deposited data

Results flagged for a closer look

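In 2 of the 86 pathway list genes 2 comparisons each separated their groups without overlap, but in opposite directions. They were chosen by this rule after their values were seen. How many of all genes meet this rule was not counted. Between genotypes, 21.7% of all genes separated upward and 19.2% downward with vehicle, and 10.1% and 10.2% with CCl4. These shares do not apply to CCl4 against vehicle, on which Cebpb and in part Atf6 were flagged, and its shares are not given. With CCl4 edgeR called 53.9% of all genes in NTC and 57.0% in sgBap1 livers. Atf6, the ER stress sensor that becomes a transcription factor, was lower with CCl4 in NTC (log2 -0.17) and higher with CCl4 in sgBap1 livers (log2 0.17), and likewise lower with sgBap1 under vehicle (log2 -0.16) and higher under CCl4 (log2 0.18). The difference was 0.34 in both readings, which are the same interaction. Of these 4 comparisons none passed edgeR's test (adjusted p of 0.167, 0.149, 0.625 and 0.377 in the order given), and edgeR's interaction test gave an adjusted p of 0.417. Cebpb fell with CCl4 in NTC livers (log2 -0.83) and was at 0.26 in sgBap1 livers (adjusted p of 0.00679 and 0.311 by edgeR), a difference of 1.09 with an adjusted p of 0.202 by the same test.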

How the results depend on the processing

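Direction and call were kept in 622 of 647 refits of single genes that changed a setting and in 673 of 730 that left out a liver. DESeq2 called 562 genes with vehicle, 509 with CCl4 and 424 for the interaction (69, 56 and 0 with edgeR's test), among them 1, 2 and 1 of the 10 genes and 2, 7 and 2 of the 86 list genes. Scaling by library size alone called 8 of the 10 genes with CCl4 in NTC livers, 32 of all genes between genotypes with vehicle and 2 for the interaction, and turned Trib3 in NTC to 0.40 and Xbp1 in sgBap1 livers to 0.41 on the log2 scale. Without the filter 94 genes were called between genotypes with CCl4 and 34 for the interaction. Limma-voom called 25 genes with vehicle. Fits of the 2 groups alone called 27 genes with vehicle and, with CCl4, 28 genes and 0 of the list genes.

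The labels do not say whether the replicate numbers pair the livers. Deviations of same-numbered NTC-CCl4 and sgBap1-CCl4 livers correlated at 0.01, 0.02 and -0.15. Those of different-numbered livers correlated at -0.12 to 0.12, so these few values cannot settle it. With the replicate block 1 gene was called between genotypes with vehicle and 24 with CCl4, 0 of the 10 genes and 0 of the list genes with CCl4 (Herpud1 at 0.90, adjusted p = 0.0634 by edgeR), and Trib3 with CCl4 in NTC turned to 0.02.

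With each liver left out in turn, a lone vehicle liver was taken to vary like the other groups. Between genotypes with vehicle 0 to 150 genes were called (150 without the liver with fat cell markers), with CCl4 1 to 71, of the 10 genes 0 to 1 and of the list genes 0 to 3, and for the interaction 0 to 7. Log2 fold changes that crossed 0, none of them called, ran between genotypes with vehicle from -0.02 to 0.38 for Hspa5, -0.06 to 0.13 for Atf4, -0.20 to 0.36 for Xbp1 and -1.57 to 0.10 for Chac1, and with CCl4 from -0.18 to 0.03 for Xbp1 and -0.38 to 0.38 for Trib3. For CCl4 in NTC livers they ran from -0.01 to 0.18 for Atf4, -0.22 to 0.35 for Xbp1, -0.58 to 0.18 for Trib3 and -0.58 to 1.08 for Chac1, and in sgBap1 livers from -0.17 to 0.04 for Xbp1. For the interaction they ran from -0.05 to 0.35 for Hspa5, -0.30 to 0.05 for Ddit3, -0.05 to 0.14 for Atf4, -0.42 to 0.15 for Xbp1 and -0.17 to 0.67 for Asns. The cause of these changes was not tested. Asns, at 14 to 27 counts in vehicle livers, is the gene of the 10 most limited by depth.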
